A study of Mus musculus with 12 samples.

Results

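The comparison described here set cultured mouse cardiac fibroblasts that had been given CCN2 against untreated cells. It used 8 of the 12 arrays of the series, 4 CCN2 arrays and 4 control arrays. Membership was taken from the array titles and treatment labels. Of 45281 probes on each array, 20445 were tested because their detection p-value was under 0.05 on at least 4 of the 12 arrays, and these represent 11018 named genes. The cells were primary cardiac fibroblasts of female C57/BL6 mice aged 10 to 16 weeks. All were grown in medium with 10% fetal calf serum and gentamycin at 40 ug/mL. CCN2 was added at 200 nmol/L for 48 h. The treatment label of the control arrays reads none and names neither a time nor a carrier protein, while the treatment protocol gives 48 h for cells cultured without or with a factor. The other 4 arrays, from cells given 500 nmol/L GDF15 for 48 h, stayed in the fit to share its estimate of spread and are used here to show where CCN2 differed. Whether replicate arrays are separate cultures or mice is not stated in the labels, and p-values reflect the spread between arrays only, part of which may be technical.

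CCN2 (connective tissue growth factor, CTGF) belongs to the CCN family of matricellular proteins, which cells secrete into their surroundings. It is made by fibroblasts after TGF-beta or mechanical stretch and is best known in the heart for its link with fibrosis. CCN proteins bind integrins, heparan sulphate proteoglycans and other growth factors. Cardiac fibroblasts build the collagen network of the heart, and in culture they can turn into contractile myofibroblasts or release cytokines and proteases that act on leukocytes and matrix.

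Levels are given as normalized log2 signals of single probes, on which a probe that is not detected reads about 4. Differences are CCN2 minus control on that scale, with their standard error (SE), and the offset used makes the differences of dim probes smaller than they are. A gene is said to have risen or fallen where its limma adjusted p was under 0.05. Genes so described are those that kept their call under every alternative, and the largest adjusted p among them is 0.00642. A large share of all genes moved: 55.9% of the genes tested passed, 25.7% higher and 30.2% lower, and in 54% the 4 CCN2 arrays all lay on 1 side of the 4 control arrays. Changes of at least 2-fold were rarer, at 6.24% higher and 7.91% lower. Of those, 198 genes were at least 4-fold higher and 207 at least 4-fold lower, and 18 and 7 passed 32-fold. The middle of the distribution was narrow, with a median log2 difference of -0.023 and a median size of 0.31. A count of list members near these shares is not a result about the list.

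The arrays correlated at 0.992 to 0.9944 within CCN2, at 0.994 to 0.9956 within control and at 0.9234 to 0.9278 between both, over the tested probes. Between 18009 and 18979 probes were detected per CCN2 array, against 19211 to 19691 per control array (exact permutation p = 0.0286, two-sided, the smallest that 4 against 4 arrays can give). Quantile normalization gives every array the same distribution of signals. Of the probes tested, 51.3% passed. With median scaling over all probes the median gene shifted by -0.21 and 26.7% of the called probes were higher, and with median scaling over the probes detected on all 12 arrays it shifted by 0.073 and 60.6% were higher, against 48.6% with quantile normalization. Small shifts of whole families therefore depend on the scaling. The gene lists numbered 70, the cell type markers included, and in 55 the side with more members past the threshold was the same under all 3 scalings. The others are named with their counts under each. The lists hold 1671 entries, of which 1244 had a probe bright enough to test. A gene detected in 1 group alone could enter through that group, so the counts below describe the tested members and not whole families.

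The promoters of a few of the largest increases are shown first because they carry, in readable form, motifs that NF-kB and AP-1 are known to bind. NF-kB is the transcription factor family that drives cytokine genes after interleukin-1, TNF or microbial ligands, and AP-1 is the family of FOS and JUN proteins that drives many metalloproteinase genes. Each window runs 250 bases before to 50 after the annotated start, on the plus strand of GRCm38.p6, 5′ to 3′, taken from RefSeq. Capitals mark every match to the motif shown for that window. The windows are chr5:90903649-90903948 for Cxcl2, chr5:90890995-90891294 for Cxcl1, chr5:30012864-30013163 for Il6 and chr9:7272264-7272563 for Mmp13. The first 3 show the NF-kB consensus and the last the AP-1 site TGANTCA.
Cxcl2: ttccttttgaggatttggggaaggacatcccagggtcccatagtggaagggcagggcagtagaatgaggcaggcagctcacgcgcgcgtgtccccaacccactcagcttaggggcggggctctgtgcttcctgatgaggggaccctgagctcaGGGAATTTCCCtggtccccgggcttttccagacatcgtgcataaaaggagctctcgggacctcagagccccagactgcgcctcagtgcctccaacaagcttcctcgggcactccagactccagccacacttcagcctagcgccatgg
Cxcl1: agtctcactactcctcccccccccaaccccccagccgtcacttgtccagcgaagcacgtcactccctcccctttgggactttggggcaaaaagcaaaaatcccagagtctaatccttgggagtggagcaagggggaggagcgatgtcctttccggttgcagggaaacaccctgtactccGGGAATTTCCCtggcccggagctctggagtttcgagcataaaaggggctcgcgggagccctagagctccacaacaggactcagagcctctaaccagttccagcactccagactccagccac
Il6: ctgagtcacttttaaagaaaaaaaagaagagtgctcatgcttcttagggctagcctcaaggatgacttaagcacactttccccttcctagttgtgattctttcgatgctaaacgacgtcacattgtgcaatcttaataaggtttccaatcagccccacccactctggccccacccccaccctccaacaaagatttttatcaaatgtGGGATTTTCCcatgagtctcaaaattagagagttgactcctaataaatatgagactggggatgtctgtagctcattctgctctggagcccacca
Mmp13: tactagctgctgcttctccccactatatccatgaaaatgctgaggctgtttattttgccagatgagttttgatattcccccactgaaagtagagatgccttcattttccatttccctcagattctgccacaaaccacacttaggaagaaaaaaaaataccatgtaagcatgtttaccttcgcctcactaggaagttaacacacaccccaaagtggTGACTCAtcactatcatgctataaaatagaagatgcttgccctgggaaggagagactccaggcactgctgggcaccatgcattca
The first match began 97 bases before the start in Cxcl2, 71 in Cxcl1, 44 in Il6 and 35 in Mmp13. In Cxcl2 and Cxcl1 the capitals hold 2 overlapping matches on opposite strands. Both strands were searched. Of the 30 genes with the largest increases 24 had a listed promoter. The NF-kB consensus stood in a promoter of 5 of these 24 genes, which were Camp, Cxcl1, Cxcl2, H2-M2 and Il6. It stood in a promoter of 1 of the 22 genes with a listed promoter among the 30 largest decreases, C1qc, and in 8.46% of all 32851 promoters. Genes count once here while the percentages count promoters, so the 2 shares are not alike in kind. The AP-1 site stood in 8 of the 24, among them Il1a, Il6, Mmp13, Serpinb2 and Sprr2e, in 4 of the 22 and in 7.81% of all. The hypoxia response core ACGTG stood in 6 of the 24, 4 of the 22 and 19.6% of all. The serum response CArG box stood in 0 of the 24, in 1 of the 22, that of Igf2, and in 1.63% of all. A match describes these letters and no binding was measured.

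The largest increases included genes of cytokines, chemokines and a lipocalin. Il1b, the cytokine interleukin-1 beta, read 12.69, 12.45, 12.70 and 12.32 on the CCN2 arrays and 4.27, 4.29, 4.16 and 4.20 on the control arrays. It was detected on no control array and the gap between the groups was far wider than the spread within either. Cxcl2, a neutrophil chemokine, read 12.57, 12.54, 12.47 and 12.54 on the CCN2 arrays and 4.44, 4.56, 4.21 and 4.47 on the control arrays, with detection on 1 of the 4 control arrays. Lcn2, the siderophore-binding lipocalin 2, was already detected in untreated cells and read 14.39, 14.42, 14.55 and 14.42 on the CCN2 arrays and 8.07, 7.74, 7.43 and 7.67 on the control arrays. No CCN2 array came near a control array in any of these, and the rule that chose them requires groups that do not overlap.

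Behind the 10 largest increases came the chemokine Ccl5 at 5.88 (SE 0.17), the nonclassical class I gene H2-M2 at 5.80 (SE 0.15) and the secreted protease inhibitor Slpi at 5.60 (SE 0.086). H2-M2 was detected on 2 of the 4 control arrays and Slpi on 1. Csf2, which encodes the growth factor GM-CSF, read 10.00, 9.85, 10.00 and 10.08 on the CCN2 arrays and 4.20, 4.23, 4.14 and 4.22 on the control arrays. It was undetected without CCN2 and was at least 43.5-fold higher. Csf3, which encodes the granulocyte factor G-CSF, was at least 27.1-fold higher by the same measure. Increases of 5.20 in Slc7a11, the cystine carrier, 5.09 in the gelatinase Mmp9 and 5.09 in S100a8, a chain of calprotectin, came next. All 3 were detected on every array of both groups, so their differences are not bounds.

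Cathelicidin, encoded by Camp, rose by 4.86 (SE 0.15), the oxygen-sensing hydroxylase Egln3 by 4.56 (SE 0.12) and the collagenase Mmp13 by 4.34 (SE 0.10). Artn, a ligand of the GFRA3 and RET receptors, was detected on 2 of the 4 control arrays and rose by 4.47 (SE 0.10), and the zinc importer Slc39a4 by 4.44 (SE 0.13). The proliferin genes Prl2c2 and Prl2c3, prolactin relatives best known from the mouse placenta, were undetected in untreated cells and at least 18.4-fold and 17.8-fold higher. These are near-identical copies, as are Sprr2d and Sprr2e and the cystatin genes Csta2 and Cstdc4, so a probe of 1 copy may also read another. Fpr2, the formyl peptide receptor, rose by 4.37 (SE 0.11). Prl2c2 read 9.12, 8.59, 8.55 and 8.71 on the CCN2 arrays and 4.27, 4.15, 4.22 and 4.26 on the control arrays, with 1 CCN2 array above the other 3 and no approach to control.

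**Figure D1:**
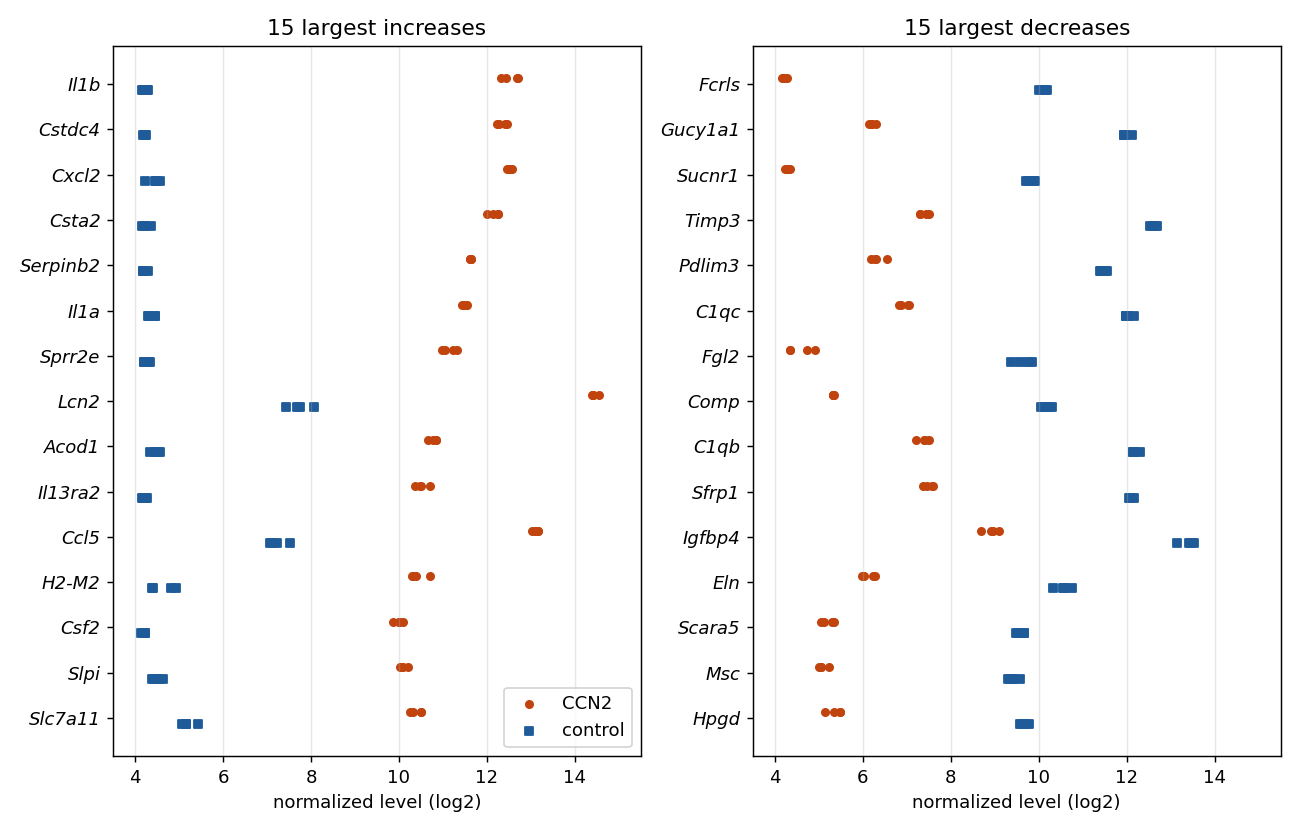
Normalized log2 level on each of the 4 CCN2 arrays (circles, upper of each pair) and 4 control arrays (squares, lower) for the 15 genes with the largest increase and the 15 with the largest decrease. Levels near 4 are not detected. The groups do not overlap in any of the 30, as the rule that chose them requires.

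The largest decreases included a macrophage marker, a nitric oxide receptor subunit, a protease inhibitor and elastin. Fcrls, the macrophage marker, headed the ranking, was detected on no CCN2 array and was at least 45.6-fold lower. The succinate receptor gene Sucnr1 and the C1q chain gene C1qc also ranked above elastin. Gucy1a1, a subunit of the receptor for nitric oxide, read 6.13, 6.19, 6.21 and 6.30 on the CCN2 arrays and 11.95, 11.93, 12.12 and 11.94 on the control arrays. Timp3, the matrix-bound inhibitor of metalloproteinases, read 7.30, 7.29, 7.50 and 7.44 on the CCN2 arrays and 12.60, 12.54, 12.69 and 12.63 on the control arrays. Both were among the brighter genes of untreated cells and were dim but still detected on all CCN2 arrays. Igfbp4, a carrier of insulin-like growth factors, fell by 4.48 on the log2 scale and the growth factor Igf2 by 3.94. Elastin, encoded by Eln, read 5.98, 6.23, 6.02 and 6.27 on the CCN2 arrays and 10.33, 10.57, 10.76 and 10.56 on the control arrays. The arrays of each group lay close together and far from the other group, where the rule that chose these genes already excludes overlap.

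Among the other large decreases were the ferritin receptor Scara5 at -4.39 (SE 0.11), the transcription factor Msc at -4.32 (SE 0.089) and the lipid transporter Abca8a at -4.27 (SE 0.099). The organic anion carrier Slco2b1 changed by -4.23 (SE 0.088) and the potassium channel subunit Kcnab1 by -4.11 (SE 0.085), each detected on 3 of the 4 CCN2 arrays. Gas6, the ligand of the TYRO3, AXL and MERTK receptors, fell by 3.97 on the log2 scale. The BMP relatives Bmp3 and Gdf10 both fell, Bmp3 by at least 13.2-fold with no detection on CCN2 arrays and Gdf10 by 3.76 on the log2 scale with detection on 1. Vsig4, a complement receptor of tissue macrophages, was detected on no CCN2 array and was at least 13.6-fold lower. Scg2, which encodes a secretogranin, was at least 11.4-fold lower in the same way. In bulk RNA, fewer cells of a type and less RNA per cell cannot be told apart, and macrophage markers are given further on.

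Interleukin-1 family members rose in 7 of 12 tested genes and fell in 1, with a median of 0.43. These ligands act through receptors that use MYD88, and Il1rn encodes the natural antagonist of interleukin-1 alpha and beta. Il1rn rose with the agonists, by 2.37 (SE 0.11), and Il1rl2, the receptor for interleukin-36, by 1.07 (SE 0.085). Il33, an alarmin of stromal nuclei, was the member that fell. It read 5.98, 6.18, 6.12 and 6.63 on the CCN2 arrays and 8.61, 8.63, 8.49 and 8.55 on the control arrays, and the groups did not overlap. A second member passed downward without control replicate 1.

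Other cytokines rose in 16 of 20 genes and fell in 3 (median 0.96). Il6, a main fibroblast cytokine, read 12.32, 12.39, 12.14 and 12.42 on the CCN2 arrays and 7.92, 8.00, 7.86 and 7.96 on the control arrays. Tnf rose by 3.76 (SE 0.097) and was detected on all arrays. The members that fell were Il15 at -1.64 (SE 0.10), Il34, a ligand of the macrophage receptor CSF1R, at -0.90 (SE 0.11), and Il16 at -0.86 (SE 0.081). Of these, Il15 is known to sustain lymphocytes and Il34 macrophages.

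Chemokines of the CXC and CX3C classes rose in 11 of 12 genes (median 2.38, or 2.23 with undetected members at their bound). Cxcl1, a close relative of Cxcl2, read 14.34, 14.21, 14.15 and 14.22 on the CCN2 arrays and 9.49, 9.34, 9.23 and 9.18 on the control arrays. Cxcl3 was undetected without CCN2 and at least 8.37-fold higher. Pf4, a platelet and macrophage chemokine, rose by 1.28 (SE 0.15), and the member that fell was the membrane-bound Cx3cl1 at -0.90 (SE 0.090). Of 16 CC chemokines 11 rose and 3 fell (median 0.97). Ccl3, Ccl2 and the eosinophil attractant Ccl11 rose by 4.26 (SE 0.10), 3.99 (SE 0.11) and 3.62 (SE 0.13). The mouse monocyte chemokine Ccl12 changed by -1.93 (SE 0.099), opposite to Ccl2, and Ccl21a went undetected with CCN2, at least 3.08-fold below control.

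Members of the TNF superfamily rose in 15 of 23 genes and fell in 3, or 5 without CCN2 replicate 4. Leading receptors were Tnfrsf22 at 2.95 (SE 0.081), Tnfrsf26 at 2.62 (SE 0.11) and the death receptor Tnfrsf21 at 2.56 (SE 0.12). The B cell factor Tnfsf13b fell by 1.06 on the log2 scale, and Tnfrsf11a, the receptor RANK, changed by -1.33 (SE 0.11), detected on 1 CCN2 array. The main TNF receptor gene Tnfrsf1a was at 0.036 with a 95% interval of -0.17 to 0.24, so a change as large as those is outside its interval. Of all genes tested, 5.95% had an interval within 0.25 of 0.

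EGF receptor ligands and receptors rose in 5 of 7 genes with none lower. The receptor gene Egfr rose by 1.38 (SE 0.093), its ligands Ereg by 2.04 (SE 0.17) and Hbegf by 1.11 (SE 0.11), and its feedback inhibitor Errfi1 by 2.26 (SE 0.080). Ereg was detected on 1 of the 4 control arrays. FGF and HGF members split, with 3 higher and 4 lower of 11 (by scaling, 3 higher and 4 lower with quantile normalization, 3 and 4 with median scaling over all probes, 5 and 4 over probes detected on all 12 arrays). With quantile normalization these are 27.3% higher and 36.4% lower, near the 25.7% and 30.2% of all genes tested. Hgf and Fgf7, both of which act on epithelium, rose by 1.14 (SE 0.14) and 0.83 (SE 0.088). The receptor genes Fgfr2 and Fgfrl1 changed by -2.10 (SE 0.096) and -1.65 (SE 0.099), and the ligand Fgf18 was undetected with CCN2, at least 3.43-fold lower. In the VEGF and PDGF group 3 rose and 7 fell of 14. The lymphatic factor Vegfd fell by 3.46 on the log2 scale and the coreceptor Nrp1 by 1.41, opposite to Vegfa at 2.43 (SE 0.077).

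Receptors for microbial patterns rose in 17 of 32 genes and fell in 10. Those that rose included Clec4e, which binds mycobacterial glycolipid, at 3.94 (SE 0.11), and the nucleic acid sensor Zbp1 at 3.25 (SE 0.10). Trem2, a lipid sensor of macrophages, read 6.98, 6.95, 7.05 and 7.20 on the CCN2 arrays and 10.35, 10.52, 10.38 and 10.48 on the control arrays. The groups were well apart. Tlr13 and Tlr1 fell by 1.76 and 1.23 on the log2 scale, and the fungal glucan receptor Clec7a by 1.13. Genes of myeloid cells thus moved both ways in this list: Clec4e and Fpr2 rose, while Trem2, Tlr13 and Clec7a fell. Macrophage markers are given further on.

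Of 26 subunits and feedback inhibitors of NF-kB, 21 rose and 2 fell (median 1.26). Tnfaip3, the ubiquitin-editing protein A20, read 10.50, 10.45, 10.30 and 10.21 on the CCN2 arrays and 6.85, 6.96, 6.76 and 6.72 on the control arrays, and the mRNA-degrading Zc3h12a rose by 3.40 (SE 0.11). Nfkbiz, a nuclear cofactor, rose by 2.99 (SE 0.11) and Traf1 by 2.91 (SE 0.10). Ikbkb, which encodes a kinase of the pathway, was at -0.020 (95% interval -0.22 to 0.18), but passed at -0.31 with median scaling over all probes (limma adjusted p = 0.0188), and Map3k14, the kinase of the alternative pathway, fell by 0.84 on the log2 scale.

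SOCS and JAK-STAT genes moved both ways, with 11 higher and 9 lower of 28 (by scaling, 11 higher and 9 lower with quantile normalization, 9 and 10 with median scaling over all probes, 12 and 9 over probes detected on all 12 arrays). Jak2 rose by 3.39 (SE 0.099), the interferon receptor gene Ifnar2 by 1.42 (SE 0.11) and Il13ra1 by 2.08 (SE 0.087). Il6st, the shared signalling chain of interleukin-6 receptors, changed by -0.83 (SE 0.093), opposite to Il6 itself. Socs3, which feeds back on that chain, read 9.68, 9.85, 9.72 and 9.75 on the CCN2 arrays and 9.74, 9.73, 9.68 and 9.70 on the control arrays. The groups overlapped, and its 95% interval was -0.16 to 0.23. On the GDF15 arrays Socs3 read 10.07 to 10.46, above every CCN2 array (CCN2 minus GDF15 -0.58, limma adjusted p = 6.14e-05).

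Of 15 feedback regulators of MAP kinases 7 rose and 3 fell. Dusp16 and Dusp4, phosphatases of JNK and ERK, rose by 1.27 (SE 0.081) and 0.97 (SE 0.088), while Dusp1 fell by 0.49 on the log2 scale. Among AP-1 and immediate early genes 10 rose and 5 fell of 19. Ier3 led at 4.08 (SE 0.098), with the dimer partners Maff at 1.51 (SE 0.093), Junb at 1.16 (SE 0.081) and Fosl2 at 1.11 (SE 0.10). Fos itself fell by 0.87 on the log2 scale, Atf3 by 0.66 and Egr2 by 0.51. Of 12 Kruppel-like factors 10 passed in neither direction. Klf5 rose by 1.11 (SE 0.15) and Klf7 changed by -0.73 (SE 0.098) (by scaling, 1 higher and 1 lower with quantile normalization, 1 and 6 with median scaling over all probes, 3 and 1 over probes detected on all 12 arrays). RGS proteins, which end G protein signals, included Rgs17 at 2.19 (SE 0.11) and Rgs16 at 1.26 (SE 0.097), against Rgs4 at -2.86 (SE 0.12), detected on 2 CCN2 arrays, and Rgs10 at -1.76 (SE 0.096).

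Acute phase and antimicrobial genes rose in 11 of 17 and fell in 5 (median 2.99, or 2.67 with undetected members at their bound). Those that fell included the lysozyme gene Lyz2 at -1.49 (SE 0.091) and the serpins Serpina3n at -1.58 (SE 0.10) and Serpina3f at -0.89 (SE 0.094). The complement list ran the other way, with 4 higher and 14 lower of 20. Cfb, factor B of the alternative pathway, read 11.15, 11.61, 11.40 and 11.75 on the CCN2 arrays and 7.82, 7.94, 7.62 and 7.93 on the control arrays, with no overlap, and C2 rose by 1.11 (SE 0.091). The decreases were largest in the 3 chains of C1q, of which C1qa fell by 3.93 on the log2 scale.

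Cystatins and cornified envelope genes, best known from the skin barrier, rose in 12 of 17 (median 0.84, or 0.67 with undetected members at their bound). Sprr2e read 11.04, 11.24, 10.98 and 11.33 on the CCN2 arrays and 4.21, 4.29, 4.34 and 4.20 on the control arrays. Sprr2d was at least 21.6-fold higher, and neither was detected on a control array. The secreted cystatin Cst3, by contrast, fell by 0.87 on the log2 scale. The summed normalized signal of 3 tested keratinocyte markers, offset included, was 217 to 263 with CCN2, against 245 to 297 in control. Krt5, Krt14, Trp63, Dsg3 and Epcam were detected on no array. Of the tested markers 1 passed, downward, and none without control replicate 1 (by scaling, 0 higher and 1 lower with quantile normalization, 0 and 2 with median scaling over all probes, 0 and 0 over probes detected on all 12 arrays). Plasminogen activators and serpins split, with 3 higher and 4 lower of 10 (by scaling, 3 higher and 4 lower with quantile normalization, 3 and 4 with median scaling over all probes, 4 and 2 over probes detected on all 12 arrays). With quantile normalization these are 30% higher and 40% lower, against 25.7% and 30.2% of all genes tested. The largest increase of the list was of Serpinb2, undetected on control arrays and at least 135-fold higher. The receptor gene Plaur rose by 1.29 (SE 0.10) and its ligand Plau, urokinase, fell by 2.06 on the log2 scale.

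All 12 tested interferon-inducible GTPases rose (median 1.25), and none fell. These proteins attack vacuoles that hold microbes. Gbp3 rose by 2.44 (SE 0.099), Gbp10 by 1.81 (SE 0.13) and Gbp5 by 1.73 (SE 0.098), the last detected on 3 of the 4 control arrays. The GBP genes are close copies of each other. Of 15 genes of the immunoproteasome and class I peptide loading 14 rose and none fell (median 0.60). Nlrc5, which switches on class I genes, rose by 1.55 (SE 0.10), the loading factor Tapbp by 1.48 (SE 0.19) and the proteasome subunit Psmb10 by 1.04 (SE 0.10).

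**Figure D2:**
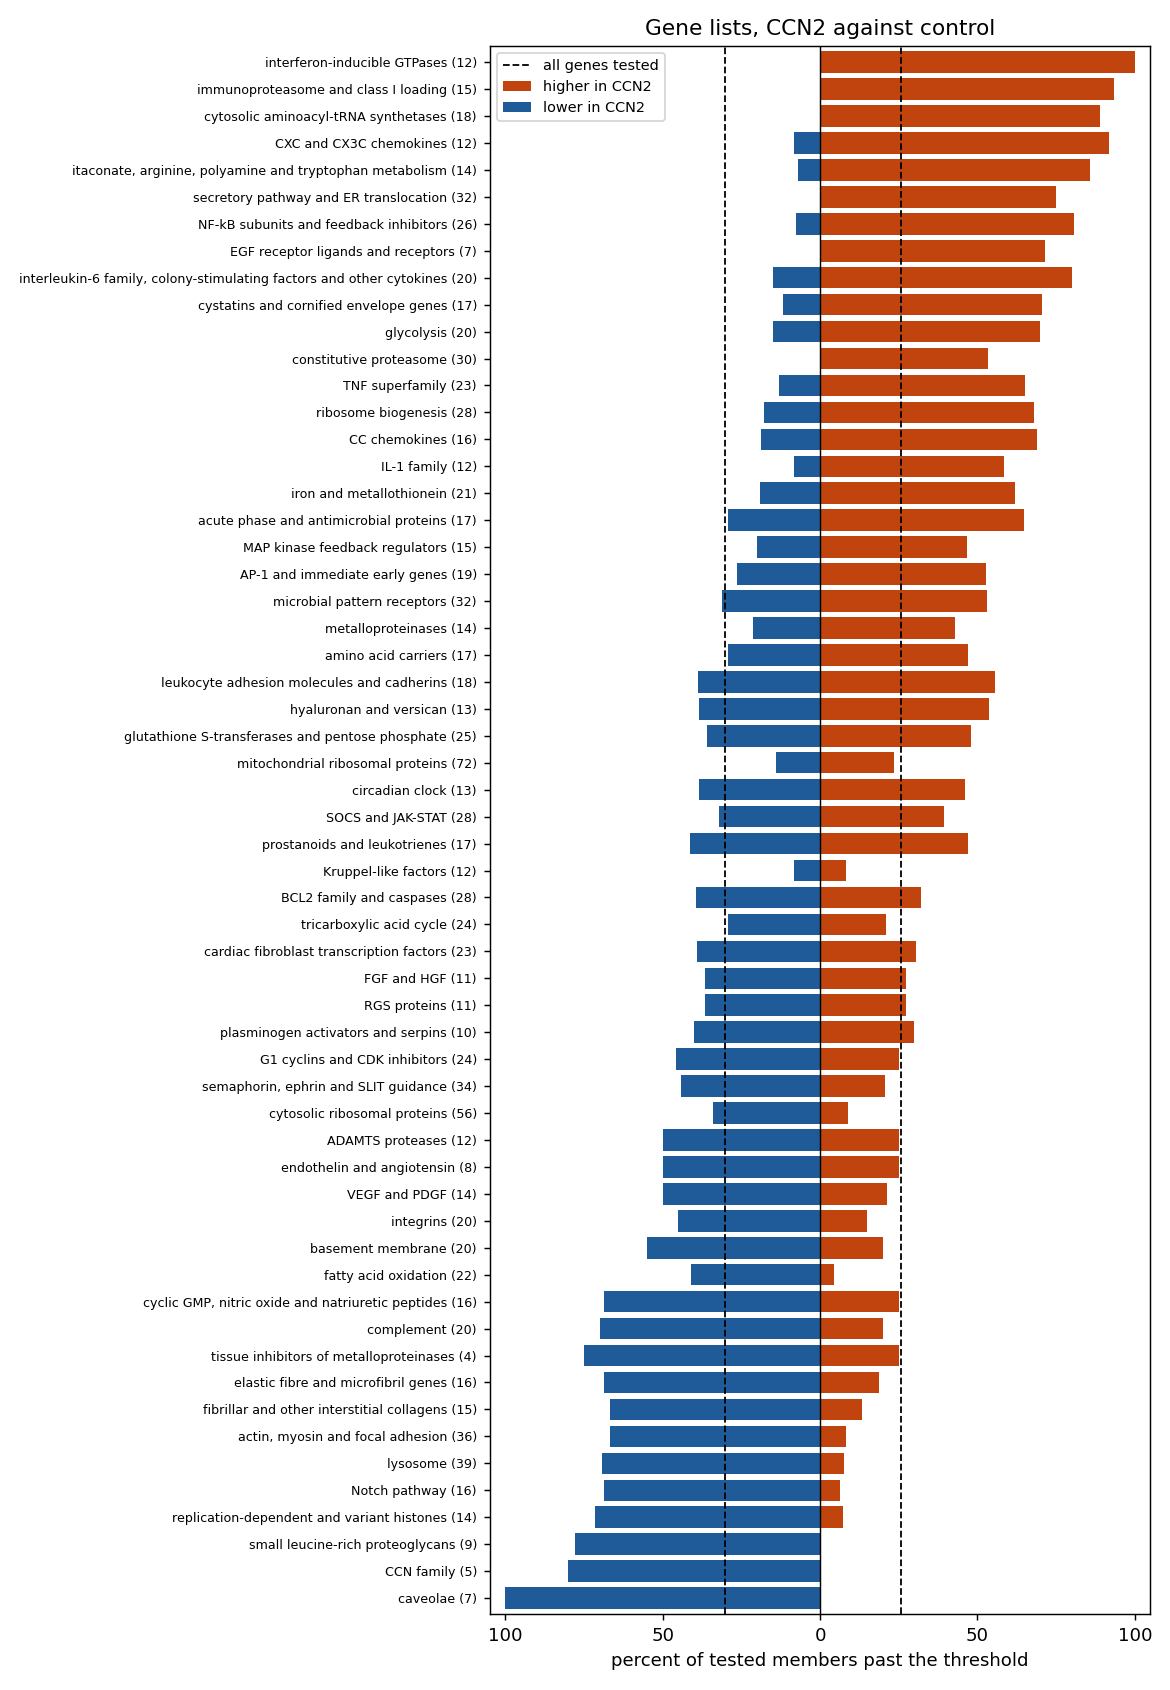
Percent of the tested members of each gene list that were higher (right) and lower (left) in CCN2 against control at an adjusted p under 0.05, with the number tested in brackets. Dashed lines mark the same shares over all 11018 genes, 25.7% higher and 30.2% lower. Interferon-inducible GTPases stand at the top and caveolar genes at the bottom.

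Lists of structural matrix genes held more members that fell than rose. Of 9 small leucine-rich proteoglycans, which space collagen fibrils, 7 fell and none rose (median -2.20, or -2.02 with undetected members at their bound). Ogn fell by 3.41 on the log2 scale, Prelp by 2.91, Podn by 2.75 and Fmod by 2.58. Podn and Fmod were detected on 3 of the 4 CCN2 arrays. Elastic fibre and microfibril genes fell in 11 of 16 and rose in 3. Fbln1 fell by 2.53 on the log2 scale, Mfap4 by 2.36 and Ltbp4 by 1.94. Ltbp1, which also binds latent TGF-beta, moved against its relatives at 0.98 (SE 0.094), as did Emilin2 at 0.74 (SE 0.094).

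Interstitial collagens fell in 10 of 15 genes and rose in 2 (median -0.67, or -0.60 with undetected members at their bound). Col14a1 fell by 3.20 on the log2 scale and the microfibrillar Col6a1 and Col6a2 by 1.34 and 1.15. Col8a2 read 4.38, 4.30, 4.31 and 4.31 on the CCN2 arrays and 6.52, 6.61, 6.35 and 6.60 on the control arrays, was undetected with CCN2 and was at least 3.79-fold lower. Col5a3 and Col7a1, each detected on 3 of the 4 control arrays, rose by 0.93 (SE 0.18) and 0.46 (SE 0.11), and Col7a1 is the anchoring fibril collagen of epithelia. Of 20 basement membrane genes 11 fell and 4 rose. The laminin chains parted, with Lama2 at -1.94 (SE 0.13) and Lamb2 at -1.77 (SE 0.14) against Lamb1 at 0.94 (SE 0.17). Agrn rose by 1.07 (SE 0.12) and Col15a1 fell by 1.79 on the log2 scale.

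The proteases that cut matrix and their inhibitors did not move as blocks. Of 14 metalloproteinases 6 rose and 3 fell. Mmp13 read 12.40, 12.36, 12.62 and 12.49 on the CCN2 arrays and 8.00, 8.19, 8.20 and 8.14 on the control arrays, and the stromelysin gene Mmp3 rose by 1.10 (SE 0.087). Mmp10 was detected on 1 of the 4 control arrays and rose by 2.67 (SE 0.10). Mmp2, the gelatinase that fibroblasts make at rest, fell by 0.50 on the log2 scale and Mmp11 by 3.06, while Mmp23, Mmp24 and Mmp28 had 95% intervals within 0.25 of 0. Of 4 inhibitors 3 fell and 1 rose. The one that rose was Timp1, which read 14.22, 14.39, 14.30 and 14.03 on the CCN2 arrays and 11.48, 11.36, 11.45 and 11.34 on the control arrays. Timp2 fell by 1.83 on the log2 scale and the membrane-anchored Reck by 1.26. Among ADAMTS proteases 3 rose and 6 fell of 12. The versicanase Adamts9 rose by 2.42 (SE 0.094) and Adamts7 by 2.16 (SE 0.086), and Adamtsl2, a microfibril-binding relative, was detected on no CCN2 array and at least 7.13-fold lower.

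Hyaluronan and versican genes split, with 7 higher and 5 lower of 13 (by scaling, 7 higher and 5 lower with quantile normalization, 4 and 5 with median scaling over all probes, 7 and 4 over probes detected on all 12 arrays). Vcan, the hyaluronan-binding proteoglycan versican, read 7.94, 8.24, 8.03 and 8.18 on the CCN2 arrays and 4.49, 5.05, 5.01 and 4.96 on the control arrays. The receptor gene Cd44 rose by 1.66 (SE 0.18). Cemip, which starts hyaluronan breakdown, read 7.99, 7.67, 7.97 and 7.86 on the CCN2 arrays and 12.11, 12.12, 11.88 and 12.01 on the control arrays. Hyal1, a lysosomal hyaluronidase, fell by 1.13 on the log2 scale, and Itih3 and Itih4, chains of the inter-alpha-trypsin inhibitor family that binds hyaluronan, by 1.09 and 0.89. Itih3 was detected on 3 of the 4 CCN2 arrays. In none of these 6 genes did the groups overlap, as was so for 54% of all genes tested.

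Of 20 integrin genes 3 rose and 9 fell. CCN2 is known to bind several integrins. Itgav and Itga5, alpha chains of receptors for vitronectin and fibronectin, rose by 2.11 (SE 0.11) and 1.27 (SE 0.12). The collagen receptor genes Itga11 and Itga1 fell by 3.28 and 1.60 on the log2 scale, the laminin receptor gene Itga6 by 1.01 and Itgb5 by 1.43. Leukocyte adhesion molecules and cadherins rose in 10 of 18 and fell in 7. The selectins that make leukocytes roll rose in both cases: Selp read 9.99, 10.66, 10.32 and 10.78 on the CCN2 arrays and 7.11, 6.76, 7.30 and 7.12 on the control arrays, and Sele was undetected without CCN2 and at least 4.74-fold higher. Icam1 rose by 1.11 (SE 0.091) and Ncam1 by 2.23 (SE 0.12). The endothelial cadherin Cdh5 and Icam2 fell by 1.07 and 1.24 on the log2 scale, in step with other endothelial markers.

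Genes of cyclic GMP, nitric oxide and natriuretic peptides fell in 11 of 16 and rose in 4 (median -1.17). Soluble guanylate cyclase, which answers nitric oxide, fell in each of its tested chains: Gucy1a2 by 3.16 and Gucy1b1 by 2.87 on the log2 scale beside Gucy1a1. The source of nitric oxide in inflammation went the other way. Nos2, the inducible synthase, read 8.77, 8.91, 9.16 and 8.57 on the CCN2 arrays and 4.49, 4.58, 4.25 and 4.41 on the control arrays, with detection on 1 control array. Npr3, which clears natriuretic peptides, was detected on no CCN2 array and at least 4.21-fold lower. Prkg2 was detected with CCN2 and on no control array, at least 2.82-fold higher.

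**Figure D3:**
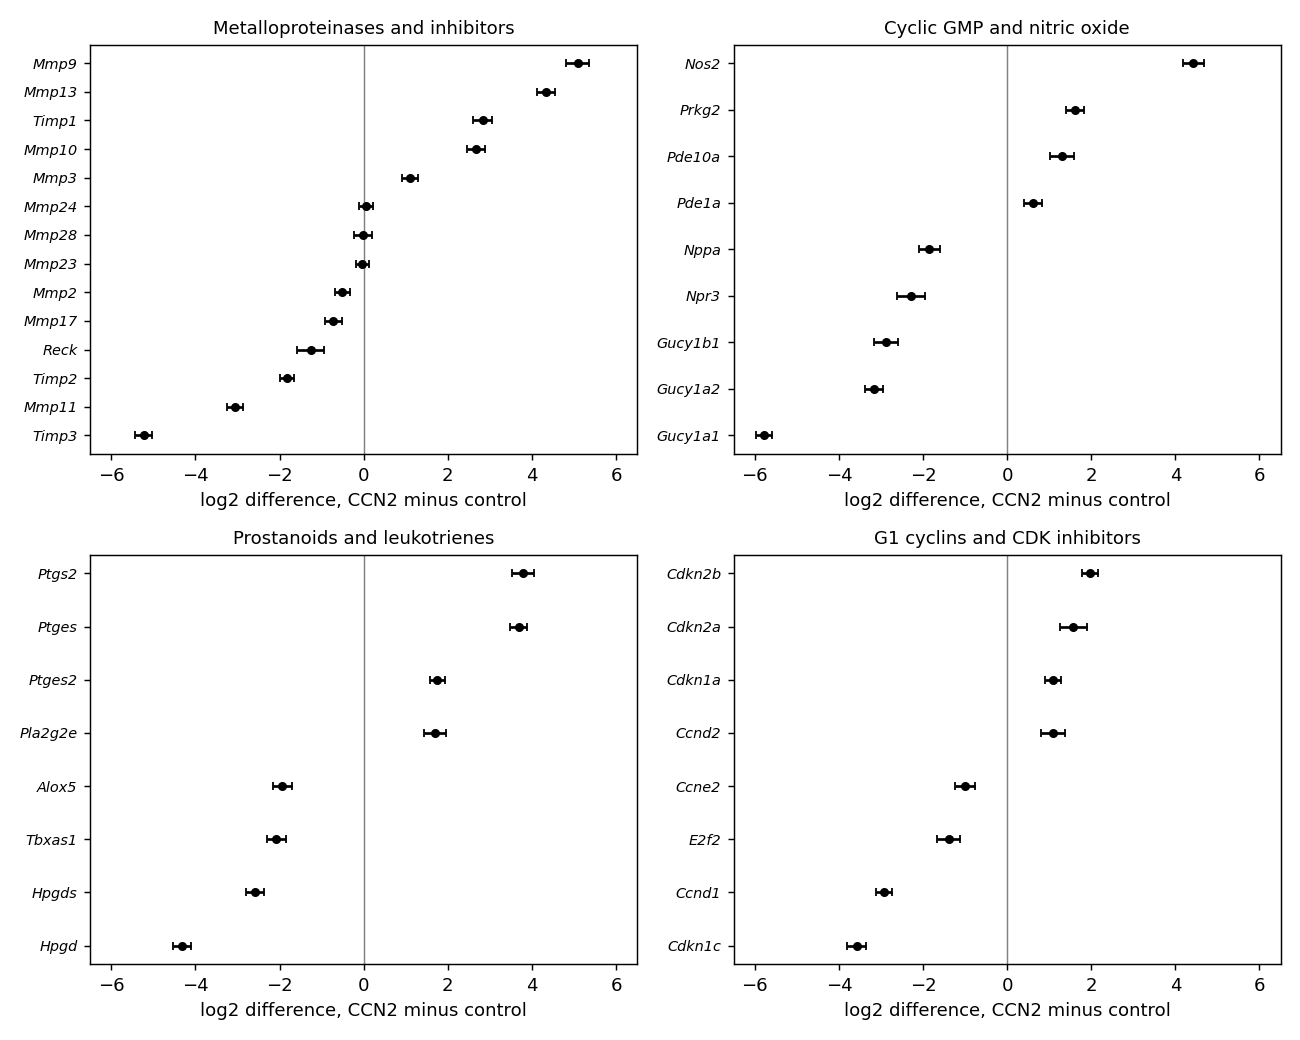
Log2 difference, CCN2 minus control, with its 95% interval for the named members of 4 families whose members moved in opposite directions. Values of members detected on no array of a group are fitted values and not bounds. Mmp9 and Timp3 mark the ends of the matrix protease panel, Nos2 and Gucy1a1 those of the cyclic GMP panel, Ptgs2 and Hpgd those of the prostanoid panel, and Cdkn2b and Cdkn1c those of the G1 panel.

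The endothelin receptor gene Ednrb fell by 2.81 on the log2 scale and the angiotensin receptor gene Agtr1a by 1.36, while the ligand gene Edn1 rose by 0.55 (SE 0.12). In that list 2 rose and 4 fell of 8, but 4 rose when a gene was read as the mean of its tested probes. All 7 tested caveolar genes fell (median -0.78). Cavin2 fell by 2.39 on the log2 scale, Cavin3 by 1.23 and Ehd2 by 0.80. Caveolae are membrane pits that buffer stretch. Actin, myosin and focal adhesion genes fell in 24 of 36 and rose in 3. Mylk, the kinase that sets off smooth muscle contraction, fell by 2.53 on the log2 scale, and Pdlim3 and the light chain gene Myl9 by 5.14 and 2.39. The exceptions were Tagln2 at 1.14 (SE 0.083), Pdlim7 at 0.67 (SE 0.10) and the filamin gene Flnc at 0.64 (SE 0.11).

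Transcription factors of cardiac fibroblasts split, with 7 higher and 9 lower of 23 (by scaling, 7 higher and 9 lower with quantile normalization, 6 and 11 with median scaling over all probes, 9 and 8 over probes detected on all 12 arrays). With quantile normalization these are 30.4% higher and 39.1% lower, not far from the 25.7% and 30.2% of all genes tested. Tcf21, a defining factor of the lineage, fell by 2.69 on the log2 scale, Mef2c by 2.30, Sox9 by 1.87 and Tbx20 by 1.53. Prrx1 rose by 1.44 (SE 0.15), Meox2 by 1.22 (SE 0.084), Runx1 by 1.13 (SE 0.13) and the epicardial Tbx18 by 0.92 (SE 0.17). Srf, the factor behind contractile genes, was at -0.018 with a 95% interval of -0.18 to 0.15, and Gata6 at 0.013 with -0.16 to 0.19. With median scaling over all probes Srf passed at -0.29 (limma adjusted p = 0.0301). Contractile genes that Srf is known to drive, such as Acta2 at -1.43 (SE 0.085) and Actg2 at -2.03 (SE 0.12), fell on the same arrays.

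Notch genes fell in 11 of 16 and rose in 1 (median -0.97). The receptor gene Notch3 fell by 3.20 on the log2 scale and the targets Hes1, Hey1 and Nrarp by 2.50, 2.14 and 1.82. The one that rose was Rbpj, the DNA-binding partner that represses targets without Notch, at 1.33 (SE 0.13), detected on 2 of the 4 control arrays. The CCN family itself fell in 4 of 5 tested genes. Ccn5 read 10.26, 10.34, 10.49 and 10.48 on the CCN2 arrays and 14.12, 14.18, 13.89 and 14.02 on the control arrays. Ccn1 fell by 0.37 on the log2 scale, Ccn3 was detected on no CCN2 array and was at least 1.27-fold lower, and Ccn4 was at -0.094 (limma adjusted p = 0.47), or -0.37 with median scaling over all probes (limma adjusted p = 0.00748). The transcript of Ccn2 is at -2.07 (SE 0.085) in this fit, with the 4 CCN2 arrays between 11.58 and 11.82.

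Clock genes moved both ways (by scaling, 6 higher and 5 lower with quantile normalization, 5 and 5 with median scaling over all probes, 6 and 4 over probes detected on all 12 arrays). The output factors Dbp and Tef fell by 2.63 and 0.58 on the log2 scale. Ciart, a repressor of the clock, rose by 1.65 (SE 0.10) and Arntl, its activator, by 0.76 (SE 0.096). Guidance genes fell in 15 of 34 and rose in 7. Sema3c, known from outflow tract development, rose by 2.39 (SE 0.18), the netrin receptor gene Unc5c by 2.12 (SE 0.11) and Robo1 by 1.41 (SE 0.097). Its ligand gene Slit3 fell by 1.30 on the log2 scale and Epha7 by 1.39.

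Genes of itaconate, arginine, polyamine and tryptophan metabolism rose in 12 of 14 (median 1.05, or 0.97 with undetected members at their bound). Acod1, which makes itaconate, read 10.83, 10.67, 10.78 and 10.84 on the CCN2 arrays and 4.52, 4.57, 4.45 and 4.34 on the control arrays. Slc7a2, the carrier that brings in arginine, rose by 4.11 (SE 0.090), and Gch1, which makes the cofactor of nitric oxide synthases, by 3.14 (SE 0.086). These 2 genes and Nos2 serve the same product. The member that fell was Sucnr1, the receptor for succinate, detected on no CCN2 array.

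Prostanoid and leukotriene genes split, with 8 higher and 7 lower of 17 (by scaling, 8 higher and 7 lower with quantile normalization, 7 and 7 with median scaling over all probes, 9 and 6 over probes detected on all 12 arrays). Ptgs2, the inducible cyclooxygenase, read 7.76, 8.29, 7.69 and 8.27 on the CCN2 arrays and 4.24, 4.22, 4.19 and 4.19 on the control arrays. It was undetected in untreated cells and at least 11-fold higher. Ptges, which makes prostaglandin E2 from its product, rose by 3.68 (SE 0.099). Hpgd, which inactivates prostaglandin E2, read 5.47, 5.34, 5.13 and 5.49 on the CCN2 arrays and 9.58, 9.71, 9.62 and 9.77 on the control arrays. Other members that fell were Hpgds, for prostaglandin D2, by 2.58 on the log2 scale, Tbxas1, for thromboxane, by 2.08 and Alox5, for leukotrienes, by 1.93. Hpgds, Tbxas1 and Alox5 are genes of macrophages as well.

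Glycolysis genes rose in 14 of 20 and fell in 3 (median 1.54). Pfkl rose by 2.29 (SE 0.095), and the lactate exporter Slc16a3, undetected on control arrays, was at least 4.31-fold higher. Members that fell were Hk3, the hexokinase of myeloid cells, by 0.80 on the log2 scale, and Pfkfb2 by 0.63. Of 24 genes of the citrate cycle and pyruvate entry 12 passed in neither direction (by scaling, 5 higher and 7 lower with quantile normalization, 3 and 8 with median scaling over all probes, 6 and 3 over probes detected on all 12 arrays). Pdk1, which restrains the entry of pyruvate into the citrate cycle, rose by 2.12 (SE 0.10). Pdk4 and Idh2 fell by 1.34 and 1.64 on the log2 scale. Citrate synthase, Cs, was at 0.049 with a 95% interval of -0.13 to 0.22. Fatty acid oxidation fell in 9 of 22 genes (by scaling, 1 higher and 9 lower with quantile normalization, 0 and 14 with median scaling over all probes, 1 and 7 over probes detected on all 12 arrays), led by Acaa2 at -1.77 (SE 0.081) and Acadm at -0.80 (SE 0.090).

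Iron and metallothionein genes rose in 13 of 21 and fell in 4 (median 1.07). The STEAP family gene Steap1 rose by 3.88 (SE 0.11) and the metallothionein Mt2, detected on 3 control arrays, by 3.07 (SE 0.17). The importer Slc39a14 was undetected without CCN2 and at least 5.39-fold higher. The iron exporter ferroportin, Slc40a1, and the zinc exporter Slc30a1 fell by 1.05 and 1.05 on the log2 scale. The largest decrease of the list was of Steap3, a ferrireductase of iron uptake, by 1.25. Amino acid carriers rose in 8 of 17 and fell in 5, with the glutamate carrier Slc1a3 at -2.80 (SE 0.098). Glutathione transferases split (by scaling, 12 higher and 9 lower with quantile normalization, 10 and 10 with median scaling over all probes, 13 and 8 over probes detected on all 12 arrays). Mgst2 was at least 7.22-fold higher and undetected on control arrays, while Mgst3 fell by 2.28 on the log2 scale. Gstp1 and Gstp2, near-identical copies, were at 1.22 (SE 0.10) and -1.41 (SE 0.082), so their probes disagreed in direction.

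Of 32 genes of the secretory pathway 24 rose and none fell (median 0.42), led by the translocon partner Ssr2 at 1.48 (SE 0.10) and Sec63 at 1.19 (SE 0.078). Of 18 cytosolic aminoacyl-tRNA synthetases 16 rose and none fell (median 0.39), led by Iars at 0.86 (SE 0.099) and Eprs at 0.84 (SE 0.12). Ribosome biogenesis genes rose in 19 of 28 and fell in 5, with Polr1a, the large subunit of RNA polymerase I, at 1.00 (SE 0.090) and nucleolin, Ncl, at -0.46 (SE 0.091). Of 30 subunits of the constitutive proteasome 16 rose and none fell, led by Psmd10 at 1.35 (SE 0.095). The counts of these 4 lists depend on the scaling, although more members were higher than lower under each. Secretory genes gave 24 higher and 0 lower with quantile normalization, 13 and 3 with median scaling over all probes, 25 and 0 over probes detected on all 12 arrays. Synthetases gave 16 higher and 0 lower with quantile normalization, 9 and 0 with median scaling over all probes, 16 and 0 over probes detected on all 12 arrays. Ribosome biogenesis genes gave 19 higher and 5 lower with quantile normalization, 12 and 5 with median scaling over all probes, 19 and 5 over probes detected on all 12 arrays. Proteasome subunits gave 16 higher and 0 lower with quantile normalization, 8 and 1 with median scaling over all probes, 26 and 0 over probes detected on all 12 arrays.

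Of 56 cytosolic ribosomal protein genes 32 passed in neither direction, and their direction turned with the scaling (5 higher and 19 lower with quantile normalization, 2 and 11 with median scaling over all probes, 22 and 3 over probes detected on all 12 arrays). The mitochondrial ones turned as well (17 higher and 10 lower with quantile normalization, 3 and 29 with median scaling over all probes, 20 and 6 over probes detected on all 12 arrays). Rplp0 rose by 0.87 (SE 0.10) and Rps16 changed by -0.62 (SE 0.088). Lysosomal genes fell in 27 of 39 and rose in 3 (median -0.56), also under both other scalings. Ctss and Lgmn, proteases of antigen-processing cells, fell by 1.75 and 1.73 on the log2 scale and Man2b1 by 1.69. Cathepsin H, Ctsh, rose by 1.07 (SE 0.079).

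**Figure D4:**
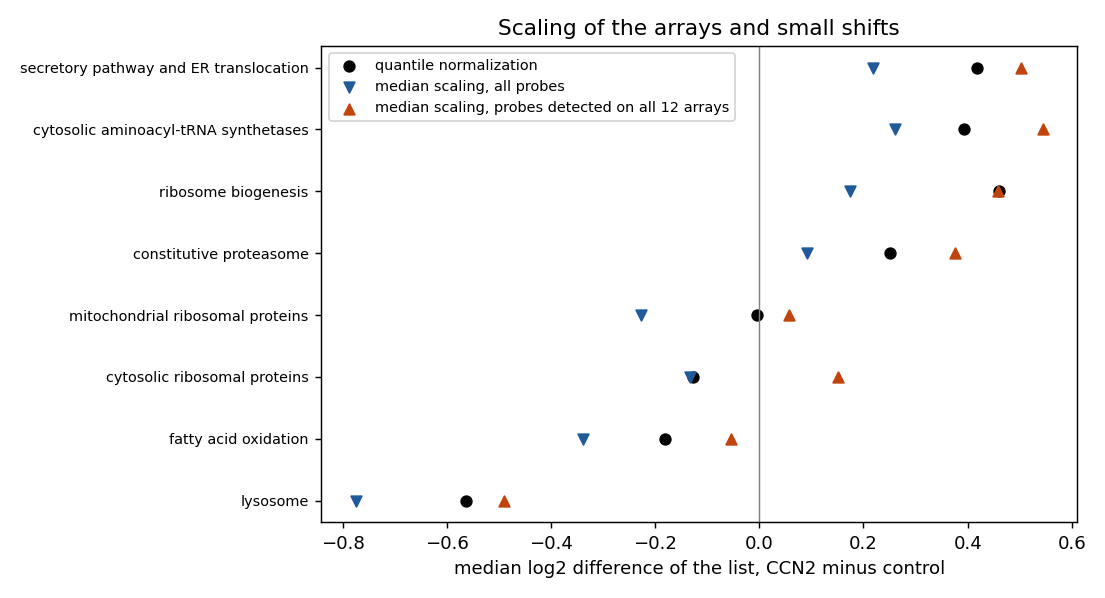
Median log2 difference, CCN2 minus control, of 8 gene lists under quantile normalization and 2 median scalings. The secretory, synthetase, biogenesis and proteasome lists stay above 0 and the lysosomal list below 0, while both lists of ribosomal proteins lie on either side of 0.

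Regulators of the G1 phase moved both ways, 6 higher and 11 lower of 24. The inhibitors of cyclin-dependent kinases parted. Cdkn2b, Cdkn2a and Cdkn1a rose by 1.97 (SE 0.086), 1.58 (SE 0.15) and 1.09 (SE 0.091), while Cdkn1c read 5.65, 5.63, 5.43 and 5.42 on the CCN2 arrays and 9.03, 8.87, 9.22 and 9.30 on the control arrays. Cyclin D1, Ccnd1, read 7.70, 7.71, 7.88 and 8.02 on the CCN2 arrays and 10.74, 10.66, 10.77 and 10.85 on the control arrays, and its relative Ccnd2 rose by 1.08 (SE 0.13). Neither Ccnd1 nor Cdkn1c showed overlap between the groups. Histone genes fell in 10 of 14 (by scaling, 1 higher and 10 lower with quantile normalization, 1 and 10 with median scaling over all probes, 1 and 6 over probes detected on all 12 arrays), with Cenpa at -1.41 (SE 0.11) and H2az2 at -1.13 (SE 0.083), and H2aj, a histone of senescent human fibroblasts, rose by 0.85 (SE 0.12).

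Genes of the BCL2 family and caspases split (by scaling, 9 higher and 11 lower with quantile normalization, 8 and 14 with median scaling over all probes, 10 and 10 over probes detected on all 12 arrays). With quantile normalization these are 32.1% higher and 39.3% lower, not far from the 25.7% and 30.2% of all genes tested. The necroptosis genes Mlkl and Ripk3 rose by 1.68 (SE 0.095) and 1.36 (SE 0.13), the inflammatory caspase gene Casp4 by 1.23 (SE 0.12) and Bid by 1.17 (SE 0.087). Casp1 fell by 0.98 on the log2 scale, opposite to Casp4 and to its substrate gene Il1b. Bcl2 and Bik fell by 0.87 and 1.36.

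Markers of several cell types were detected in these cultures. Summed signals are normalized and include the offset of 16, so a member that is not detected still adds to them. The 18 fibroblast markers were all bright enough to test. Their summed signal was 52470 to 54240 with CCN2, against 74420 to 80370 in control. Of these markers 11 fell and 1 rose, with Gsn at -3.10 (SE 0.097), Mgp at -3.61 (SE 0.086) and Fstl1, the exception, at 0.56 (SE 0.088). Macrophage markers summed to 15170 to 17510 with CCN2, against 32980 to 35580 in control, with 16 of 22 lower and Pf4 and Cd14 higher. The sum for endothelial markers was 4039 to 4280 with CCN2, against 6530 to 7042 in control, with 12 of 14 lower, and for pericytes and smooth muscle 6074 to 6882 with CCN2, against 18710 to 21400 in control, with 10 of 11 lower. The part of these cells in the decreases of C1q chains, Trem2, lysosomal proteases, Alox5, Cdh5 and Notch3 was not tested.

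Adipocyte markers fell in all 4 tested genes, with a summed signal of 3949 to 4465 with CCN2, against 9967 to 11530 in control, and with Lpl at -1.34 (SE 0.084) and Pparg at -1.57 (SE 0.089). Of the cardiomyocyte markers 4 were bright enough to test and 3 fell. Neutrophil markers rose in 3 of 4, with a summed signal of 2452 to 2793 with CCN2, against 125 to 148 in control. That sum rests on S100a8 and Camp, since S100a9, Retnlg, Cxcr2 and Ngp were detected on no array. The mesothelial sum was 1399 to 1603 with CCN2, against 406 to 448 in control, carried by Aldh1a2, a retinoic acid synthase, at 2.56 (SE 0.11), while Upk3b and Upk1b fell (by scaling, 3 higher and 3 lower with quantile normalization, 2 and 4 with median scaling over all probes, 3 and 2 over probes detected on all 12 arrays). Upk3b was detected on 1 CCN2 array and Upk1b on none. Lymphocyte, mast cell and Schwann cell lists had 2, 4 and 2 tested members. The lymphocyte sum was 37.9 to 40.9 with CCN2, against 48.3 to 61.1 in control. Its member Cd79b was detected on no CCN2 array, so its part there is the floor and not a level. Mast cell sums were 319 to 366 with CCN2, against 373 to 425 in control, and Schwann cell sums 80.6 to 89.3 with CCN2, against 157 to 173 in control.

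Some genes crossed the limit of detection altogether. On all 4 CCN2 arrays and no control array, 124 of the 11018 genes tested were detected, and all 124 passed. Their median bound was at least 1.85-fold, with 37 at 4-fold or more. In the opposite direction 209 genes were detected on all control arrays and no CCN2 array, of which 202 passed. Their median bound was at least 1.36-fold, with 20 at 4-fold or more. Every CCN2 array detected fewer probes than any control array, so the 2 counts are not on an equal footing. Of the 4330 genes with over 1 tested probe, 1833 had at least 2 probes past the threshold, all in 1 direction, and 81 had probes past it in opposite directions. In 5 of these both probes moved by at least 2-fold. They were Ccdc85b (2.62 and -1.24), the interferon-induced Ifitm1 (3.06 and -1.20), the sodium-calcium exchanger Slc8a1 (1.19 and -1.27), Clec4b1 (1.52 and -1.03) and the spectrin Sptbn1 (1.12 and -1.01). For these 5 genes no single direction is given.

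CCN2 and GDF15 arrays were compared directly in the same fit, since both treatments share the control. Of the genes tested 45.9% differed, 22% higher and 23.8% lower with CCN2. The dose of GDF15 was 500 nmol/L, so doses differ as well as proteins. Csf2, Csf3, Sprr2e, Sprr2d, Prl2c2 and Prl2c3 were detected with CCN2 on 4 of 4 arrays and with GDF15 on none. Csf2 read 4.19 to 4.52 on the GDF15 arrays, against 9.85 to 10.08 with CCN2. Ptgs2, Cxcl3, Sele and Rgs11 were likewise detected on no GDF15 array. Nos2 was detected on 1 GDF15 array and was higher with CCN2 by 4.46 (limma adjusted p = 1.54e-14). Other leading increases were not particular to CCN2 and lay between control and CCN2 with GDF15. Lcn2 read 10.9 to 12.11 with GDF15, against 7.43 to 8.07 in control, and Ccl5 10.78 to 11.94, against 7.07 to 7.51. Cxcl2 read 6.92 to 7.79 with GDF15, against 4.21 to 4.56 in control, and S100a8 8.59 to 8.80, against 5.39 to 5.42.

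Il33 and Ccn2 stood on different sides of control in the 2 treatments. Il33 read 5.98 to 6.63 with CCN2 and 9.32 to 9.71 with GDF15, against 8.49 to 8.63 in control. CCN2 arrays lay below and GDF15 arrays above every control array, and CCN2 minus GDF15 was -3.32 (limma adjusted p = 9.28e-13). Ccn2 read 11.58 to 11.82 with CCN2 and 14.02 to 14.21 with GDF15, against 13.72 to 13.89 in control, with the same order and no overlap. Cemip read 7.67 to 7.99 with CCN2 and 12.05 to 12.40 with GDF15, against 11.88 to 12.12 in control, and here the GDF15 and control arrays overlapped. Timp3 and Gucy1a1 lay below control on every array of both treatments. Timp3 read 7.29 to 7.50 with CCN2 and 11.75 to 12.15 with GDF15, against 12.54 to 12.69 in control, and Gucy1a1 6.13 to 6.30 with CCN2 and 10.90 to 11.16 with GDF15, against 11.93 to 12.12 in control. Their differences CCN2 minus GDF15 were -4.59 and -4.85. Pf4, Mmp2 and Mmp3 did not pass between the treatments, with CCN2 minus GDF15 at 0.34, 0.19 and 0.085.

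**Figure D5:**
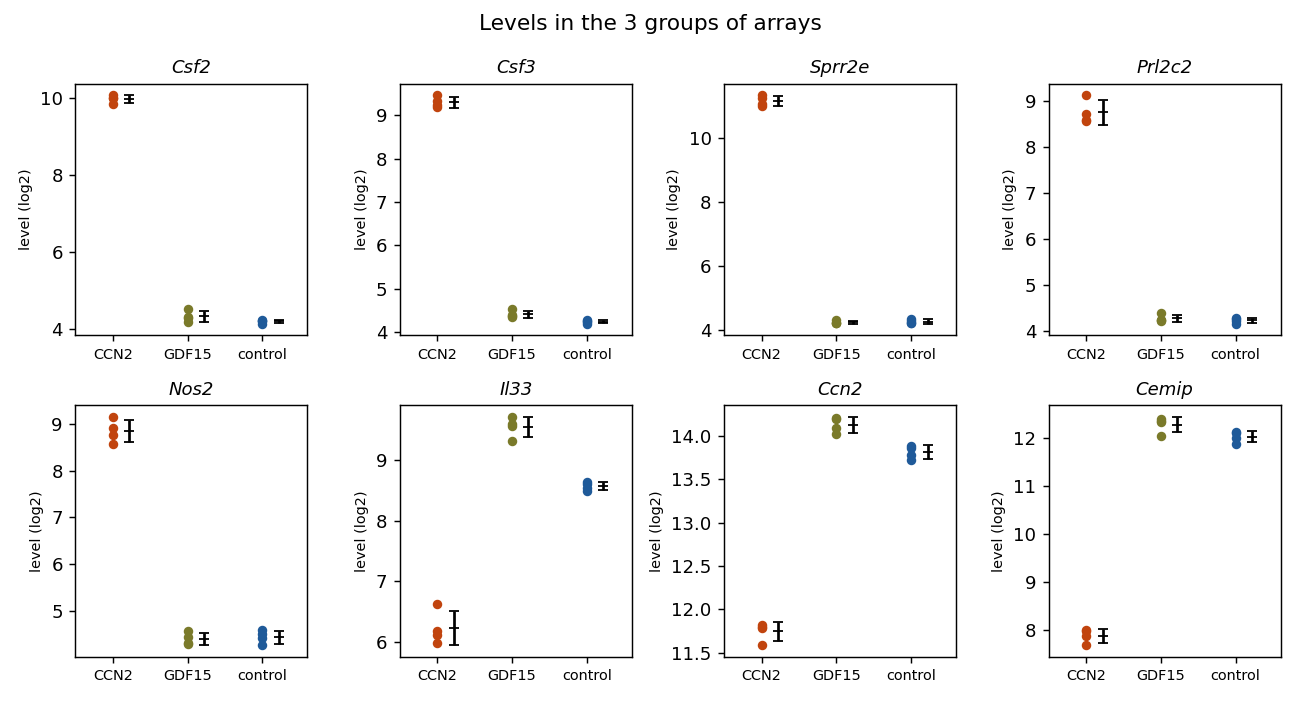
Normalized log2 level of 8 genes on the 4 arrays of each group, with the mean and SD beside the points; the vertical axes differ and do not start at 0. Csf2, Csf3, Sprr2e, Prl2c2 and Nos2 are high on the CCN2 arrays alone of these 3 groups, and Il33, Ccn2 and Cemip are lowest there.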

How the data were processed

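Total RNA of cultured cardiac fibroblasts was measured on 12 Illumina mouse bead arrays. Per the file headers, the deposited table gives, for each of 45281 probes, a detection p-value beside an intensity that is not normalized. The submitters' processing notes name GenomeStudio 2010.1. A second deposited table holds quantile-normalized intensities, which served as an alternative. Scanner and background settings were not given in these sources.

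The intensities were background-corrected, quantile-normalized and brought to log2 with an offset of 16 (neqc, limma 3.58.1, R 4.3.3). Group means were fitted over all 12 arrays (lmFit, eBayes), with two-sided tests and Benjamini-Hochberg adjustment over 20445 probes. All adjusted p-values of single genes come from this limma fit, whose script was tested on simulated data. The brightest tested probe stands for a gene. Where a group has no array that detects a probe, the difference is a bound, written as at least N-fold. For it the dimmer group takes, on each array, its lowest detected signal or the probe's value, whichever is higher. No genome build is named for the probes.

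Named genes were the 30 largest increases and 30 largest decreases without overlap between groups, up to 4 each way from each list, members against their list, members with a 95% interval within 0.25 of 0, genes whose probes disagree, and the Ccn family. Members and lists were chosen with earlier results of these data known. Precision is limited by having 4 arrays per group. Alternatives were other scalings, background, offset, filters, samples in the fit, array weights and each array left out. For list counts, the mean of a gene's tested probes was another.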

Additional observations from a re-analysis of the deposited data

Results flagged for a closer look

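In some genes named in the text 1 array stood apart from the other 3 of its group, by a gap above Dixon's 95% critical value for 4 samples. This was so for 27 of the 586 sets of 4 arrays looked at, and chance flags about 1 in 20. Values are normalized log2 levels. CCN2 replicate 1 lay above the other 3 for Col8a2 at 4.38 and Itga11 at 7.90 and below them for Cd44 at 10.05 and Cx3cl1 at 6.20. CCN2 replicate 2 lay above the other 3 for Hgf at 6.58 and below them for Ccn2 at 11.58, Hk3 at 7.35 and Timp2 at 10.77. CCN2 replicate 3 lay above the other 3 for Gdf10 at 4.58 and below them for Cdkn2b at 10.06. CCN2 replicate 4 lay above the other 3 for Fgfr2 at 6.73 and Traf1 at 8.40 and below them for Emilin2 at 8.56, Lamb2 at 8.23 and Rps16 at 12.71. Control replicate 1 lay below the other 3 for Gstp1 at 10.44, Unc5c at 4.81 and Vcan at 4.49. Control replicate 3 lay above the other 3 for Gucy1a1 at 12.12, Klf7 at 9.81, Psmb10 at 9.10 and Traf1 at 5.44. Control replicate 4 lay above the other 3 for Ogn at 12.94 and Slc16a3 at 4.46 and below them for Lamb2 at 10.04, Rgs16 at 6.66 and Tcf21 at 11.04. In none of these genes did leaving out 1 array end the call. That follows from the choice of genes, which kept only calls that held with each array left out. The cause was not tested.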

How the results depend on the processing

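Of 293 genes named in the report, Fcrls aside, 283 passed the threshold. None of these lost its call or changed sign under any alternative run for single genes. That follows from the choice of genes and does not measure how stable the calls are. Of the 10 that did not pass, 9 changed sign under at least 1 alternative, and Ikbkb, Srf and Ccn4 passed under median scaling over all probes. With median scaling over all probes, 2859 probes and 1633 genes were higher in CCN2 against control, in place of 5090 and 2835, and 2302 probes were higher in CCN2 against GDF15, in place of 4272. With an offset of 50, 715 probes were at least 2-fold higher and 783 at least 2-fold lower, in place of 1114 and 1273, because the offset shrinks the differences of dim probes. Of the called probes 48.6% were higher with quantile normalization, 26.7% with median scaling over all probes and 60.6% with median scaling over probes detected on all 12 arrays. The other alternatives moved these counts by less than 1.5 times. With each array left out in turn, 4699 to 4876 probes were higher and 5030 to 5176 lower. The chosen genes that turned are not used in the report. Chosen genes that lost their call are not described as risen or fallen either. These numbered 13 under median scaling over all probes and 12 over probes detected on all 12 arrays, and others under further alternatives. Those that turned under median scaling over all probes were Rpl21 at -0.037 and Rpl4 at -0.017. Under median scaling over probes detected on all 12 arrays they were Pglyrp1 at 0.040, Lor at 0.00096, Serpinf1 at 0.018 and Fth1 at 0.11. The cause of these was not tested. Small counts within lists also moved when an array was left out. Members of the citrate cycle that fell numbered 3 to 4 in place of 7 without control replicate 1, 2 or 3 or CCN2 replicate 2, 3 or 4, and ribosome biogenesis members that fell 3 in place of 5 without control replicate 1 or 3. Cytosolic ribosomal protein genes that rose numbered 3 in place of 5 without control replicate 2 or CCN2 replicate 4. Kruppel-like factors that fell numbered 2 in place of 1 without control replicate 1 or 2 or CCN2 replicate 2, and cardiac fibroblast markers that rose 2 in place of 1 without control replicate 3. The keratinocyte marker that fell was lost without control replicate 1, with an offset of 50 and with the stricter detection filter. The endothelial marker that rose was lost without control replicate 2 or 3 or CCN2 replicate 1 or 3. With the mean of a gene's tested probes, 2 Kruppel-like factors rose and 2 fell, and 1 small leucine-rich proteoglycan rose. Cardiac fibroblast markers that rose then numbered 3, and endothelin and angiotensin members that rose 4. Ribosome biogenesis members that fell numbered 3 and secretory members that fell 2. No paired analysis was possible because the titles number the arrays through all groups, so no 2 groups share a number.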
